A study of Arabidopsis thaliana with 20 samples.

Results

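AT-HF (AT4G26900) and APS4 (AT5G43780) are the histidine synthesis gene and the sulfate assimilation gene that could be followed as single genes on these arrays of Arabidopsis thaliana. They were chosen by the identifiers of their features, which the platform annotation pairs with exactly 1 gene each. They are 2 of 692 single-gene features among 3439 features in all. No other feature holds either gene, alone or with others. The pair was chosen with the difference between the groups already known, so all values of AT-HF and APS4 for hcf145 against WT are given as a description, without a test.

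Total RNA came from 2 groups of plants of the ecotype Wassilevskija, wild type (WT) and a mutant titled hcf145, which the labels describe as impaired in building photosystem I. Each group had 10 arrays, numbered 1 to 10. The labels give no tissue, age, growth condition or allele, nor whether arrays were made from different plants. The source names of the mutant samples read gun5, another mutant, so the group is called hcf145 after its titles. The genotype could not be checked, because HCF145 and CHLH (the gene mutated in gun5) were the sole gene of 0 features. Of 39 marker genes in 7 lists of tissues and cell states, 0 were the sole gene of a feature, so the tissue could not be checked either. In RNA from whole tissue, fewer cells of a type and less RNA per cell cannot be told apart.

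Plants make histidine in the plastid from ATP and PRPP, an activated sugar phosphate. AT-HF, also called HISN4, encodes imidazole glycerol phosphate synthase. This bifunctional enzyme closes the imidazole ring and releases AICAR, which flows back into purine synthesis. Sulfate is activated by ATP sulfurylase, which joins it to ATP to form adenosine phosphosulfate. APS reductase and sulfite reductase then reduce it in the plastid to sulfide, the sulfur donor for cysteine and glutathione. APS4 is a member of the small ATP sulfurylase family, whose members are similar in sequence. The feature is assigned to APS4 alone, but whether RNA of the related genes also bound to it was not tested.

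Arrays with adjacent numbers (1 and 2, 3 and 4, and so on) resembled each other. In 20 of 20 cases the closest array of the same group was the adjacent one, with a consensus correlation of 0.661 between them. Each group was therefore treated as 5 averages of adjacent arrays. Arrays 9 and 10 of both groups had the largest absolute scores on the second principal component, which held 18.4% of the variance, so values are also given without them. Their scores had the same sign in both groups. Deposited intensities, on a linear scale of unknown units, summed to 3319 to 3640 per array, with 120 to 248 values at exactly 0. Neither AT-HF nor APS4 had a 0 on any array.

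AT-HF, the histidine synthesis enzyme, was higher in hcf145 in the mean, and the difference was largest in 1 pair of array numbers. Its intensity in WT ran from 0.0932 to 0.741 with a median of 0.333 over 10 arrays. In hcf145 it ran from 0.390 to 1.28 with a median of 0.700 over 10 arrays. The groups overlapped, since 6 of 10 hcf145 arrays lay within the WT range and the other 4 lay above it.

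The averages of adjacent arrays show part of where the overlap came from. In WT the averages were 0.704 for arrays 1 and 2, 0.323 for 3 and 4, 0.411 for 5 and 6, 0.326 for 7 and 8, and 0.113 for 9 and 10. In hcf145 they were 0.766, 0.642, 0.617, 0.425 and 1.11 in the same order. Arrays 9 and 10 were thus the dimmest for AT-HF in WT and the brightest in hcf145, while WT arrays 1 and 2 lay among the hcf145 values. Among single arrays, WT arrays 5 (0.412) and 6 (0.411) also lay above hcf145 array 8 (0.390), which the averages do not show.

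**Figure D1:**
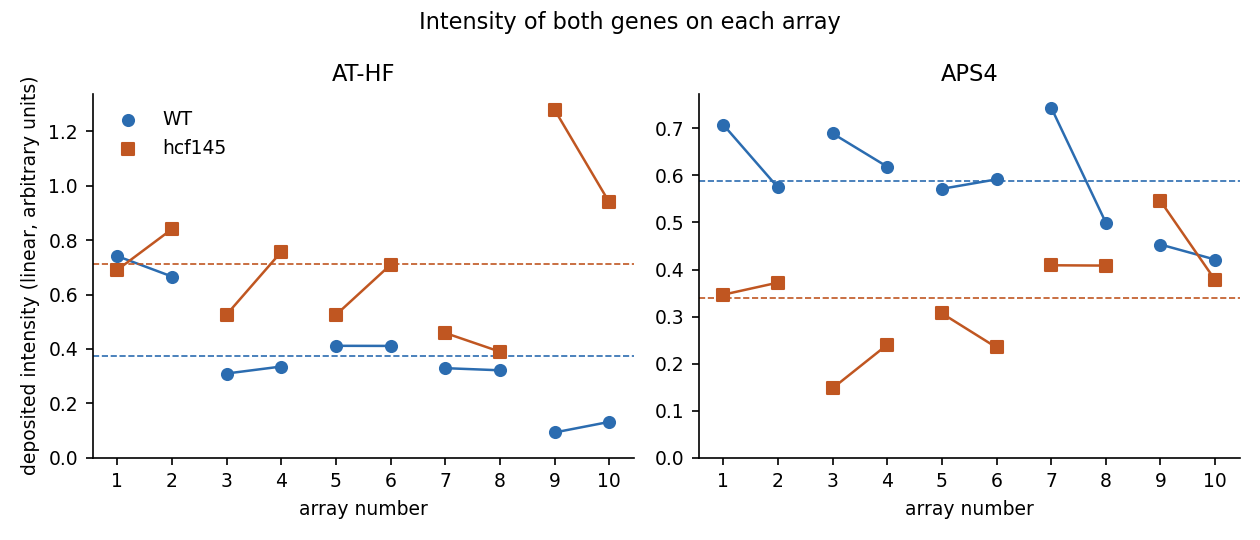
Deposited intensity (linear scale, arbitrary units, starting at 0) of AT-HF and APS4 against array number, with circles for WT and squares for hcf145. Lines join adjacent arrays and dashed lines are group means; the AT-HF groups lie furthest apart on arrays 9 and 10 (averages 0.113 and 1.11), where the APS4 groups lie closest (0.437 and 0.462).

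The mean intensity of AT-HF was 0.375 ± 0.203 in WT and 0.712 ± 0.265 in hcf145 (SD, n = 10 arrays each). On the quantile-normalised log2 scale the difference was 1.34 ± 0.39 (SE, 5 averages per group), which is 2.53-fold higher in hcf145, and 4 of 5 hcf145 averages lay above every WT average. Without arrays 9 and 10 the mean intensities were 0.441 ± 0.168 and 0.612 ± 0.159 (SD, n = 8 arrays each). The log2 difference was then 0.87 ± 0.31 (SE), or 1.83-fold.

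APS4, the ATP sulfurylase, differed in the other direction. Its intensity in WT ran from 0.421 to 0.744 with a median of 0.583 over 10 arrays. In hcf145 it ran from 0.148 to 0.546 with a median of 0.359 over 10 arrays. Of the hcf145 arrays, 9 of 10 lay below every WT array, and the remaining 1, array 9, lay within the WT range.

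The WT averages of APS4 were 0.641 for arrays 1 and 2, 0.654 for 3 and 4, 0.582 for 5 and 6, 0.622 for 7 and 8, and 0.437 for 9 and 10. The hcf145 averages in the same order were 0.359, 0.194, 0.271, 0.409 and 0.462. The lowest hcf145 level was that of arrays 3 and 4. In these deposited intensities WT was at its lowest and hcf145 at its highest on arrays 9 and 10, and the order of the groups was turned. There hcf145 array 9 (0.546) lay above both WT arrays and hcf145 array 10 (0.378) below them. On the normalised log2 scale the order was not turned on arrays 9 and 10 (-0.957 in WT, -1.018 in hcf145). On that scale WT was lowest on arrays 5 and 6 (-1.023).

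The mean intensity of APS4 was 0.587 ± 0.108 in WT and 0.339 ± 0.112 in hcf145 (SD, n = 10 arrays each). The normalised log2 difference was -0.58 ± 0.23 (SE, 5 averages per group), or 1.496-fold lower in hcf145, and 4 of 5 hcf145 averages lay below every WT average. Without arrays 9 and 10 the means were 0.625 ± 0.0823 and 0.308 ± 0.0938 (SD, n = 8 arrays each), and the log2 difference was -0.71 ± 0.22 (SE). Leaving these arrays out therefore made the AT-HF difference smaller and the APS4 difference larger. The groups were fully apart in the normalised averages for neither gene. Over all 3131 features with every average, they were for 149 (4.76%, hcf145 higher) and 172 (5.49%, hcf145 lower). The share of features with 4 of 5 averages apart was not counted, nor were shares for the counts of arrays and pairs of numbers. Nothing is read from these counts.

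By array number, AT-HF was higher in hcf145 in 5 of 5 pairs of numbers on the normalised scale and in the values as deposited. The normalised log2 differences were 0.40 for numbers 1 and 2, 1.39 for 3 and 4, 1.08 for 5 and 6, 0.62 for 7 and 8, and 3.22 for 9 and 10. APS4 was lower in 5 of 5 pairs on the normalised scale, by -0.50, -1.28, -0.71, -0.35 and -0.06 in the same order. In the values as deposited it was lower in 4 of 5, and at 0.06 on the log2 scale for numbers 9 and 10. The labels do not say that arrays of the same number belong together across the groups, so these differences only describe how even the values were.

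**Figure D2:**
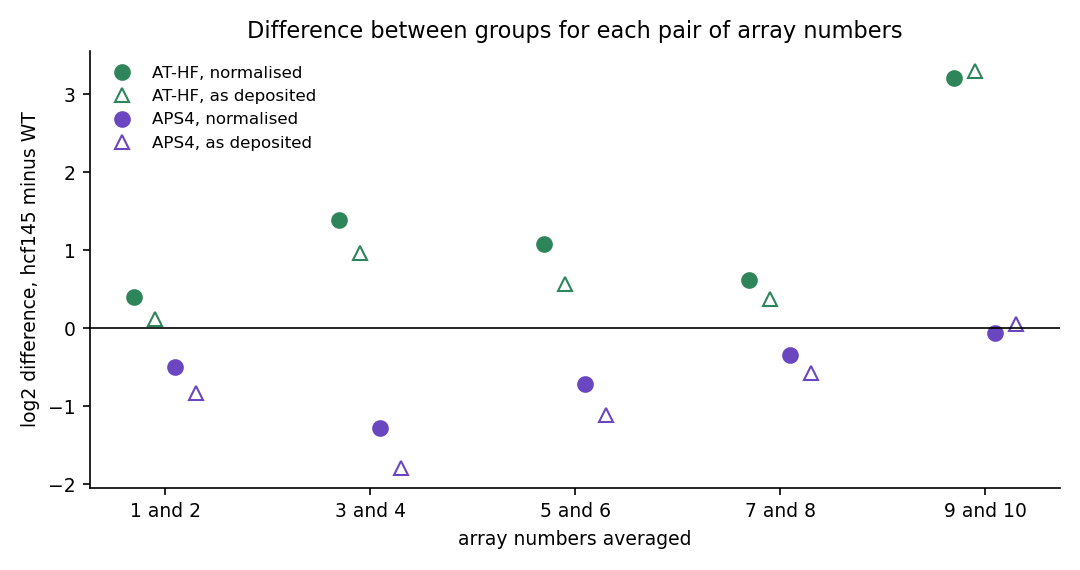
Log2 difference, hcf145 minus WT, for each pair of array numbers (horizontal axis), with filled circles for normalised values and open triangles for values as deposited. AT-HF lies above 0 throughout and reaches 3.22 normalised and 3.31 as deposited on numbers 9 and 10, while APS4 lies at or below 0 except for the deposited value of 0.06 on those numbers.

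The genes also differed in how even their averages were within WT. The SD of the 5 normalised averages of AT-HF in WT was 0.834 on the log2 scale, against a median of 0.395 over the 2784 features with a value on every array, and 93.2% of these features had a smaller SD. Without arrays 9 and 10, left out after the data were seen, it was 0.521, and 83.5% had a smaller one. The SD of APS4 in WT was 0.0835, and 0.539% of the features had a smaller one. As deposited, a scaling also added after the data were seen, the SD of APS4 in WT was 0.235, with 15.4% of the features below it, and without arrays 9 and 10 the deposited SD was 0.0739, with 1.98% below. In hcf145 the normalised SDs were 0.489 for AT-HF and 0.417 for APS4, near the median of 0.475. With all arrays the SD of APS4 in WT thus depended on the scaling. Without arrays 9 and 10 the normalised SD of APS4 in WT was 0.0927, with 3.38% of the features below it. It changed little on that scale, while the deposited SD depended on these arrays. The SD of AT-HF in WT depended on arrays 9 and 10. Between the arrays of an adjacent pair, both genes had SDs near the medians of all features (0.188 and 0.231 in WT, median 0.195, and 0.263 and 0.274 in hcf145, median 0.288). For APS4 in WT the SD within pairs, 0.231, was thus larger than that of the averages, 0.0835.

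Within an array, brightness can be ranked against all features without any scaling between arrays. The intensity of AT-HF exceeded that of a median of 37.3% of the 3439 features in WT (range 12.3% to 67.3%) and 73.7% in hcf145 (50.6% to 85.4%). For APS4 the medians were 59.9% in WT (52.7% to 69.0%) and 50.1% in hcf145 (25.9% to 64.0%). The median ranks differed between the groups in the same directions as the median intensities. On arrays 9 and 10 the averaged rank of APS4 was 59.9% in WT and 58.2% in hcf145. The order of the groups there was thus not turned by rank, unlike in the deposited intensities. The ranks are made from the same values, so they add no separate evidence.

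The log2 ratio of AT-HF to APS4 on the same array is likewise free of the scaling between arrays. Only its difference between the groups is read, since levels of different features cannot be compared. It averaged -0.85 ± 0.78 in WT and 1.07 ± 0.62 in hcf145 (SD, n = 5 averages each), a difference of 1.92. The WT averages were 0.14, -1.02, -0.50, -0.91 and -1.98 from numbers 1 and 2 to 9 and 10. The hcf145 averages were 1.08, 1.74, 1.19, 0.05 and 1.27. The highest WT average, of arrays 1 and 2, lay just above the lowest of hcf145, of arrays 7 and 8. Without arrays 9 and 10 the difference was 1.59. This ratio joins both choices, so it repeats their differences and adds no separate evidence.

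Across the 3287 features tested, 251 (7.64%) passed limma at an adjusted p under 0.05 with adjacent arrays averaged, 121 higher and 130 lower in hcf145. Of AT-HF and APS4, 0 of 2 were among them. With all 20 arrays counted separately 962 features (29.3%) passed, including 2 of 2, but p-values that ignore the shared deviations are too small. Nothing is read from these counts for the chosen genes. The split of calls depended on the scaling, with 48.2% higher in hcf145 after quantile normalisation, 18.3% in the values as deposited (65 higher, 291 lower) and 61.3% with median centring (117 higher, 74 lower). The median feature differed by -0.06 after quantile normalisation and by -0.32 as deposited.

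Set against that median, AT-HF lay 1.40 above the median feature after quantile normalisation, 1.39 above it as deposited and 1.39 above it with median centring (log2). APS4 lay -0.52, -0.53 and -0.53 from it. Median centring shifts whole arrays, so these distances can differ little from the deposited ones. Of the 3287 features, 91 had a higher difference than AT-HF, and 658 had a lower one than APS4. Among the 660 tested single-gene features these numbers were 18 and 146. AT-HF was therefore near the upper end of all differences and APS4 within the lower part of the bulk. Without arrays 9 and 10, 295 features lay above AT-HF and 521 below APS4.

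**Figure D3:**
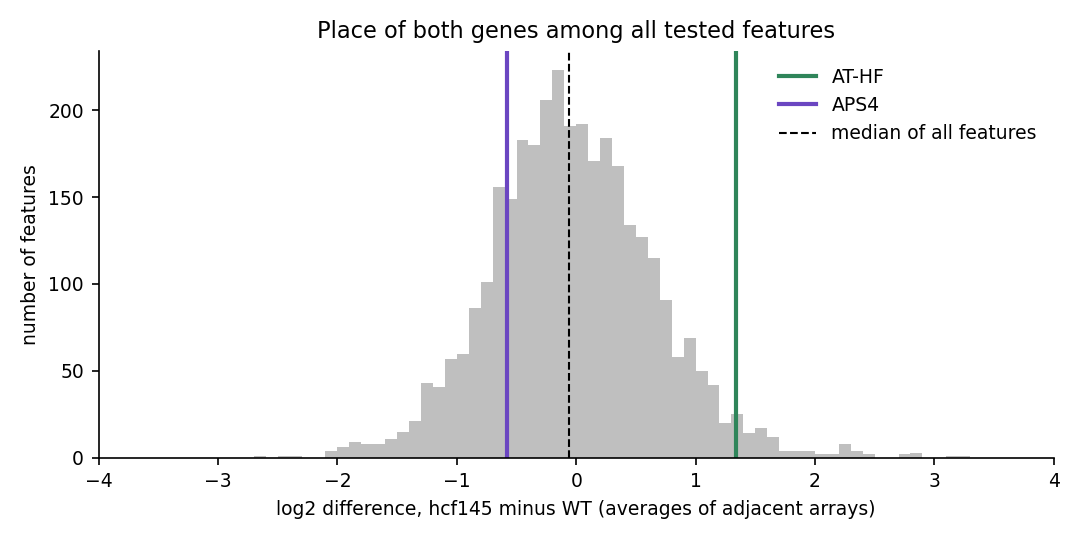
Number of features (vertical axis) by log2 difference, hcf145 minus WT, in the fit on averages of adjacent arrays, in bins along the horizontal axis. The solid lines mark AT-HF at 1.34 and APS4 at -0.58, and the dashed line the median of all 3287 features at -0.06.

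**Figure D4:**
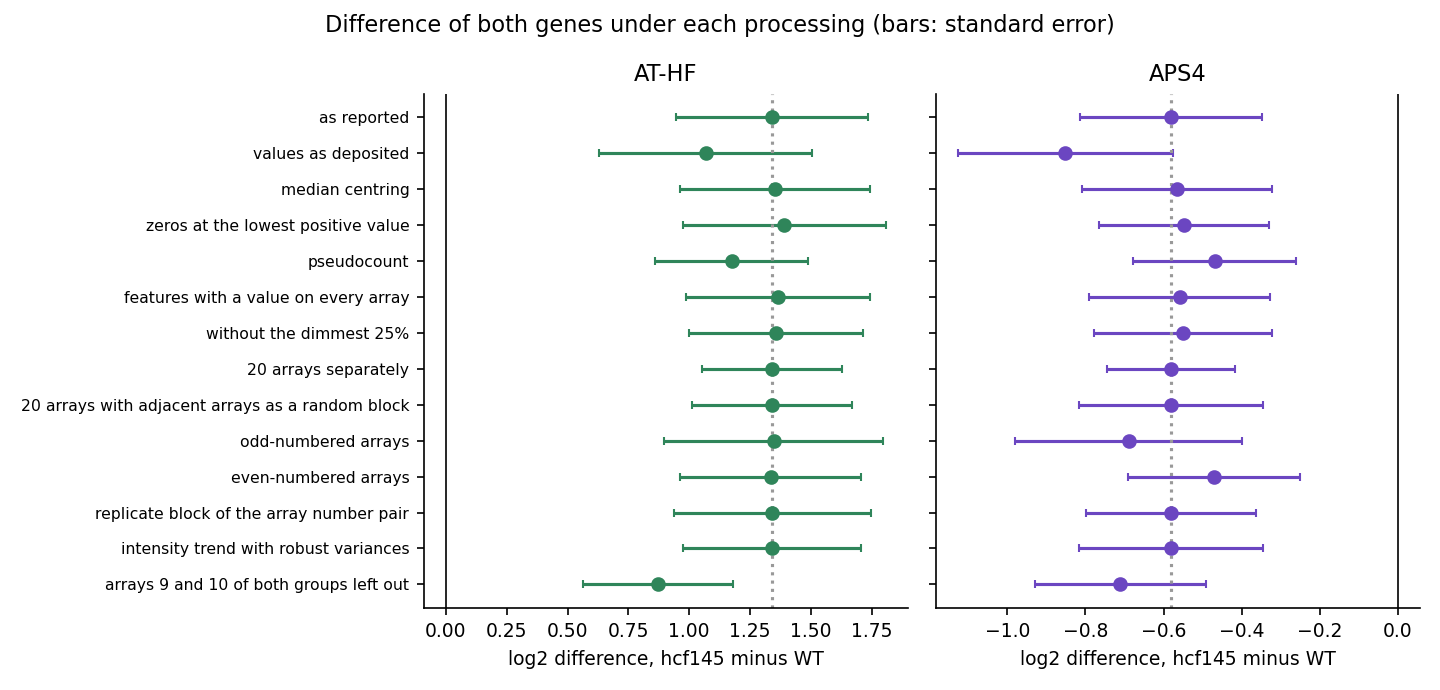
Log2 difference, hcf145 minus WT, of AT-HF and APS4 (horizontal axes) under each way of processing the values, with bars for 1 standard error. AT-HF ranges from 0.87 without arrays 9 and 10 to 1.39 with zeros at the lowest positive value, and APS4 from -0.85 as deposited to -0.47 with a pseudocount.

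The remaining genes of both pathways were almost wholly out of reach. Of 11 genes of histidine synthesis, AT-HF was the 1 measured alone, and 2 more lay on features shared with other genes, which are not named. Of 13 genes of sulfate activation and reduction, APS4 was the 1 measured alone. Of 13 genes of sulfate uptake and its regulation and 15 of cysteine and glutathione synthesis, 0 were. The differences of AT-HF and APS4 are therefore those of 2 single genes and say nothing on their pathways.

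The 2 measured genes of PRPP synthesis, which supplies the starting sugar of histidine synthesis, both had lower means in hcf145. This is the direction opposite to that of AT-HF. Their list, like the others here, assigns genes by general knowledge, as RefSeq gives these loci no name. AT2G35390 fell and AT2G44530 did not pass, so 1 of 2 fell and 0 rose, beside 7.64% of all features called in either direction.

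AT2G35390 had WT averages of 0.813, 0.913, 0.863, 0.738 and 0.695 and hcf145 averages of 0.5998, 0.262, 0.453, 0.360 and 0.318, from numbers 1 and 2 to 9 and 10. On the normalised scale the 5 hcf145 averages lay below all 5 WT averages, which was so for 172 of the 3131 features with all 10 averages (5.49%). The log2 difference was -0.83 ± 0.23 (SE, limma adjusted p = 0.0469), or 1.78-fold lower. This call is close to the threshold. It ended with median centring (limma adjusted p = 0.0691) and without arrays 9 and 10 (limma adjusted p = 0.0728), and in 19 of 30 fits that left out an array or an average, while the difference stayed between -1.09 and -0.66 in all 13 other ways of processing.

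AT2G44530 was dim, at 0.222 ± 0.0606 in WT and 0.0877 ± 0.0713 in hcf145 (SD, n = 10 arrays each). The hcf145 mean counts 2 zeros as 0, which were set missing in the fit. There the hcf145 averages of arrays 1 and 2 and of 7 and 8 rested on arrays 1 and 7 alone. The log2 difference of AT2G44530 was -0.91 ± 0.44 (SE, limma adjusted p = 0.212). As deposited it passed, at -1.41 (limma adjusted p = 0.0491), and with zeros at the lowest positive value it did not, at -1.499 ± 0.81 (SE, limma adjusted p = 0.272). Both zeros were on even-numbered arrays, 2 and 8, and with the even-numbered arrays alone, these left out as missing, the difference was 0.0050 (limma adjusted p = 0.996).

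Of 39 genes of other amino acid synthesis in the plastid, 4 were measured alone and 0 rose or fell past the threshold in limma, 1 of them at an unadjusted p under 0.05. That gene was AT3G58610, listed as the ketol-acid reductoisomerase of branched-chain amino acid synthesis. Its WT averages were 0.610, 0.891, 0.821, 0.690 and 0.524, and its hcf145 averages 0.922, 0.959, 1.01, 1.105 and 1.03. On the normalised scale all 5 hcf145 averages lay above the WT averages, as for 149 of the 3131 features (4.76%). The log2 difference was 0.71 ± 0.20 (SE, unadjusted limma p = 0.00428, limma adjusted p = 0.0545). It was past the threshold in 9 of 13 other ways of processing, among them median centring (0.81, limma adjusted p = 0.0407), but not as deposited (0.53, limma adjusted p = 0.122). The 9 include the fit of 20 arrays separately. Of 30 fits leaving out arrays, it passed in 1 (limma adjusted p from 0.0447 to 0.122).

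The other 3 genes had log2 differences of 0.91 ± 0.52 for CBL, cystathionine beta-lyase of methionine synthesis, -0.13 ± 0.44 for AT3G23940 and -0.10 ± 0.37 for AT5G10920 (SE; limma adjusted p = 0.279, 0.870 and 0.880). CBL had 1 zero in WT, set missing. Its difference was 2.15 with zeros at the lowest positive value and 0.46 with the odd-numbered arrays (limma adjusted p = 0.176 and 0.558). The value of AT3G23940 turned to 0.36 without arrays 9 and 10 (limma adjusted p = 0.191). Its hcf145 averages were 0.163 on arrays 9 and 10 and 0.843 to 1.06 on the other numbers. The median log2 difference of the 6 genes beside AT-HF and APS4 was -0.12, against -0.06 over all features.

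**Figure D5:**
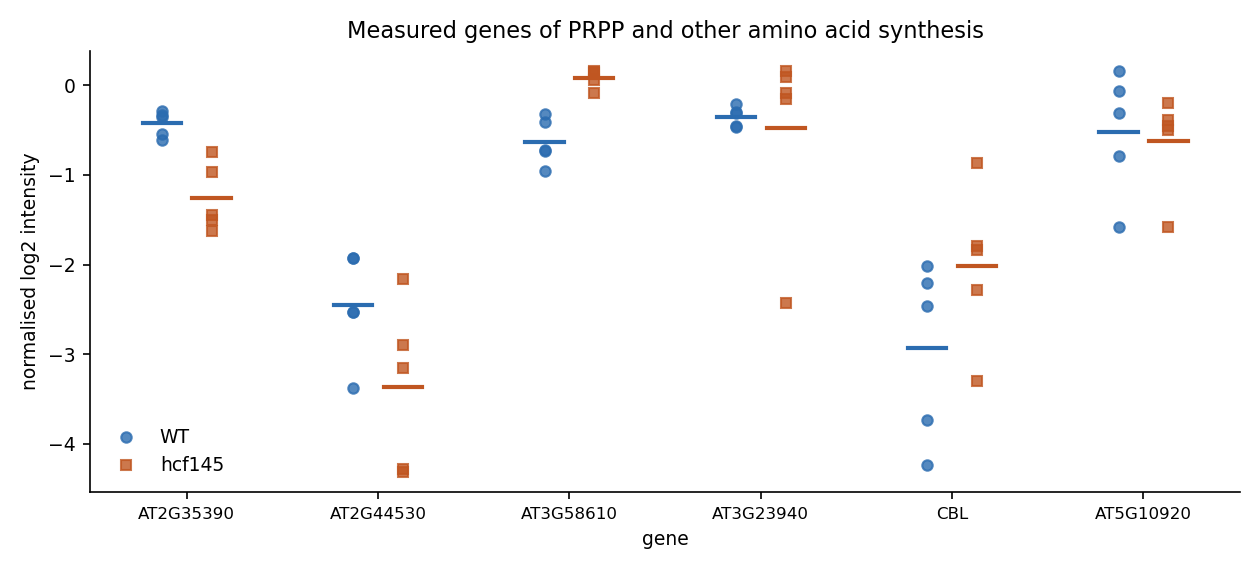
Normalised log2 intensity (vertical axis) of the 6 measured genes of PRPP synthesis and other plastid amino acid synthesis, with 1 point per average of adjacent arrays, circles for WT, squares for hcf145, and bars for the means. The groups are apart for AT2G35390 (difference -0.83) and AT3G58610 (0.71), and overlap or interleave for the other 4.

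Genes with a pattern like that of AT-HF or APS4 were sought by correlating values, after removal of the group means, over the 20 arrays, among 545 other single-gene features with a value on every array. This keeps the difference between groups out of the measure. The correlations are descriptions, and adjacent arrays share deviations. The features most like AT-HF were AT3G18870 (r = 0.865), AT5G11550 (0.836), AT5G10920 (0.824), AT2G39100 (0.791) and AT2G36480 (0.782). AT5G10920 is also on the amino acid list, as the argininosuccinate lyase of arginine synthesis. The likeness leaned on arrays 9 and 10, since over the other 16 arrays these correlations were 0.736, 0.636, 0.736, 0.715 and 0.484, and 0 of the 5 remained among the closest 5.

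The estimated differences between the groups ran both ways among these features, without passing the test for any of them. AT3G18870 had mean intensities of 1.51 ± 0.605 in WT and 0.782 ± 0.127 in hcf145 (SD, n = 10 arrays each) and did not pass the test (log2 difference -0.73 ± 0.30 SE, limma adjusted p = 0.147). AT5G11550 was at 0.96 ± 0.39 (SE, limma adjusted p = 0.146), toward higher values as AT-HF was. So were AT2G39100 at 0.40 ± 0.39 and AT2G36480 at 0.80 ± 0.49 (SE; limma adjusted p = 0.545 and 0.317). AT5G10920 was at -0.10 (limma adjusted p = 0.880).

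The features most like APS4 were AT5G65490 (r = 0.765), AT2G36920 (0.706), AT4G26370 (0.695), AT5G38750 (0.651) and AT4G24840 (0.638) over the 20 arrays. AT5G65490 was also the closest over the 16 arrays without 9 and 10 (r = 0.768), and its log2 difference was -0.65 ± 0.27 (SE, limma adjusted p = 0.151), near that of APS4. AT4G26370 and AT4G24840 rose in hcf145, opposite to APS4, by 1.06 ± 0.26 and 1.05 ± 0.23 on the log2 scale (SE; limma adjusted p = 0.0318 and 0.0245). As deposited they were at 0.79 and 0.75 and did not pass (limma adjusted p = 0.0871 and 0.0907). AT2G36920 was at -0.02 ± 0.27 and AT5G38750 at 0.16 ± 0.32 (SE, limma adjusted p = 0.975 and 0.782). Over all features tested, 7.64% passed in either direction. AT-HF and APS4 themselves had a correlation of 0.138 over the 20 arrays and -0.188 over the 16 without arrays 9 and 10. Ranked by likeness to AT-HF, APS4 was number 187 of the 545 features.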

How the data were processed

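Transcript levels of 20 arrays (10 WT, 10 hcf145, grouped by title) were analysed. The values the authors deposited were taken as intensity, on a linear scale, judging by their range (means near 1 per array, none below 0, a ceiling of 100 in hcf145). Their quantification and scaling are not given in the sources used here. Features were named through the platform annotation (692 with 1 gene, 690 of them matched to RefSeq, TAIR10.1, for names only, and features with several genes left unnamed).

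Zeros were set missing, values taken to log2, 152 features with fewer than 5 values in a group left out, and the arrays quantile normalised. Adjacent arrays were averaged. Differences were fitted over all 3287 features with limma 3.58.1 in R 4.3.3 (lmFit and eBayes, two-sided, no covariate), with Benjamini-Hochberg adjustment at 0.05. The p-values reflect spread among these arrays alone, possibly technical, and the number of arrays limits the precision. The fit was tested on simulated data.

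The genes named were AT-HF and APS4, every measured gene of their pathway lists, up to 4 rises and 4 falls of the other amino acid list or its smallest p, and the 5 features most like each. The other 3 genes of that list were named after their values were seen. Members and lists were chosen with earlier results of these data known. Same-numbered arrays correlated across groups by 0.0842 to 0.529 (5 averages), and 8 of 10 averages correlated best with their own number. No label says that numbers pair the groups, so they were not taken as pairs in the reported fit. Whether they are pairs was not tested. The alternatives were the scaling, zeros, filters, variance model, treatment of adjacent arrays, the number as a block, and arrays left out.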

Additional observations from a re-analysis of the deposited data

Results flagged for a closer look

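In 32 groups of arrays or averages tested over 8 genes, 3 held a value far from the others, where chance gives about 5% of groups. AT3G23940 stood at -2.42 (normalised log2) on the average of hcf145 arrays 9 and 10, against -0.15 to 0.16 on the other 4 averages. CBL stood at -5.96 on WT array 2, against -3.89 to -1.998 on the other 8 arrays with a value. AT5G10920 stood at -1.58 on the average of hcf145 arrays 7 and 8, against -0.49 to -0.19. No value of AT-HF or APS4 was this far out in its group, although WT arrays 9 and 10 averaged -3.08 for AT-HF, against -1.84 to -0.74 on the other averages.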

How the results depend on the processing

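The differences of AT-HF and APS4 kept their direction in all 43 other fits. Leaving out arrays, they ran from 1.03 to 1.61 for AT-HF and from -0.70 to -0.43 for APS4. In the 13 other fits they ran from 0.87 to 1.39 and from -0.85 to -0.47. Both genes were chosen with this difference known, and the fits share their arrays, so the kept direction adds no separate evidence. The share of all features that kept their direction was not counted. The count of features past the threshold, 251, was 962 with 20 arrays separately, 429 with adjacent arrays as a random block, 142 and 138 with the odd- and even-numbered arrays, and 511 with the array number as a replicate block. Leaving out arrays gave 49 to 254. Omitting WT arrays 1 and 2 gave 101, WT 3 and 4 gave 115, WT 5 and 6 gave 86 and WT 7 and 8 gave 49. Omitting hcf145 arrays 3 and 4 gave 138, hcf145 5 and 6 gave 106 and hcf145 7 and 8 gave 110. With the replicate block AT3G58610 passed (limma adjusted p = 0.0343) and AT2G35390 stayed past (limma adjusted p = 0.0429). Of the averages, 8 of 10 correlated best with their own number in the other group. AT2G35390 lost its call in 19 of 30 fits leaving out arrays (-0.96 to -0.74) and with even-numbered arrays or zeros at the lowest positive value (limma adjusted p = 0.160 and 0.0563). AT2G44530 turned to 0.0050 with even-numbered arrays, which hold both its hcf145 zeros (set missing), and was -1.499 with zeros at the lowest positive value. AT3G23940 turned to 0.36 without arrays 9 and 10. Leaving out arrays, AT3G23940 ran from -0.29 to 0.35 and AT5G10920 from -0.37 to 0.14. Of the 5 features most like AT-HF, 3 were shared by Spearman's measure and 0 without arrays 9 and 10, a choice made after seeing the data. For APS4, 1 was shared by Spearman's measure, 3 as deposited, 3 with adjacent arrays averaged and 1 without arrays 9 and 10. The cause was not tested. Differences of dim features such as AT2G44530 and CBL are the least certain.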
